A study of Mus musculus with 5 samples.

Results

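The Hox cluster genes were followed across embryonic stem cells (ESCs, which can form all tissues of the embryo) and mouse embryonic fibroblasts (MEFs, connective tissue cells grown from embryos). They were taken as every probe set with 1 gene symbol of the form Hoxa, Hoxb, Hoxc or Hoxd followed by a number. This gave 37 Hox genes, each with 1 probe set, among 19938 genes measured. The RefSeq gene table lists 39 Hox cluster genes in the mouse. Hoxb8 appeared only on 1 probe set that also names Hoxb7, so it is given no value.

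The series holds 5 expression arrays of total RNA, 1 for each group. The groups are 2i ESCs (title number 15), S ESCs (36), 4n 2i MEFs (2_3 in the title), 2n 2i MEFs (15_1) and control MEFs (4). All 5 samples share 1 background, F1 of 129X1/SvJ X MSM/Ms. The series title speaks of deriving female ESCs in the ground state, and 2i is the usual name for culture with a pair of kinase inhibitors. The labels do not spell out S, 2n or 4n, and they do not say how many embryos or cultures lie behind an array. Each group has no replicate, so pairs of arrays are described without a test. A test was possible only between the 2 ESC arrays and the 3 MEF arrays, where the spread is that between conditions of a cell class. Title number 15 is shared by the 2i ESC and 2n 2i MEF samples, which the test does not take into account.

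Hox genes encode homeodomain transcription factors that tell cells where they lie along the head-to-tail axis. In mammals they sit in 4 clusters, and the number of a gene follows its order in the cluster: low numbers are used towards the head, and high numbers towards the tail and the tips of the limbs. In ESCs the clusters are known to be held silent by Polycomb proteins while poised for use. Fibroblasts are known to keep the Hox pattern of the body region they came from, so the Hox genes of a fibroblast culture describe its origin along the axis.

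The windows around the start sites of Hoxa2, Hoxa3, Hoxa5, Hoxd11 and Hoxd13 are shown. Of the Hox genes measured, these stood highest on the 4n 2i MEF array relative to the control MEF array. Each window runs from 250 bases before to 50 bases after the start in the RefSeq table of GRCm38.p6, read 5′ to 3′ along the gene. Capitals mark TTTAT, or ATAAA where it lies on the other strand, the core letters that posterior Hox proteins are known to prefer. Hoxa2 (chr6:52164782-52165081), Hoxa3 (chr6:52213018-52213317) and Hoxa5 (chr6:52204538-52204837) lie on the minus strand. Hoxd11 has 2 windows (chr2:74679308-74679607 and chr2:74682073-74682372) and Hoxd13 has 1 (chr2:74667975-74668274), all on the plus strand.
Hoxa2: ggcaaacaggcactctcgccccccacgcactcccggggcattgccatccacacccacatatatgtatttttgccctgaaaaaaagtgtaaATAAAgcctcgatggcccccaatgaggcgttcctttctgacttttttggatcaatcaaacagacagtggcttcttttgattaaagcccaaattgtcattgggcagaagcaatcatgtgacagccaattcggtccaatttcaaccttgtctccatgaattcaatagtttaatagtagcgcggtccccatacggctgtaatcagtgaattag
Hoxa3: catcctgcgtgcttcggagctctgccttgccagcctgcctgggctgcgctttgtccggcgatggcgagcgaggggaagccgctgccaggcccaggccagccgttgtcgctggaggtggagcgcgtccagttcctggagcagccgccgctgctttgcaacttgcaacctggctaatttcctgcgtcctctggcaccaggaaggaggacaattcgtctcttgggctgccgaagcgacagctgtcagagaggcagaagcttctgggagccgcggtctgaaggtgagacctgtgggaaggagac
Hoxa5: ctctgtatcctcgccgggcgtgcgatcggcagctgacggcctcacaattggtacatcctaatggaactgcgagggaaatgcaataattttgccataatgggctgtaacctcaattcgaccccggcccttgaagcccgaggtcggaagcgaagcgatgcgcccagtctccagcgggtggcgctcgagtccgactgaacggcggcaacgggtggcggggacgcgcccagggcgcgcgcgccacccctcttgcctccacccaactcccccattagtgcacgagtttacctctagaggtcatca
Hoxd11, first window: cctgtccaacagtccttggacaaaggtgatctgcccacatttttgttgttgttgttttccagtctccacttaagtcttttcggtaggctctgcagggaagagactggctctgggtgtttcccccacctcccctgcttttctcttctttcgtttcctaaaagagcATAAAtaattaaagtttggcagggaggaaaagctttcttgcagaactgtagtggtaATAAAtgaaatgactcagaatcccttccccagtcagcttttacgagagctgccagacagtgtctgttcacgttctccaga
Hoxd11, second window: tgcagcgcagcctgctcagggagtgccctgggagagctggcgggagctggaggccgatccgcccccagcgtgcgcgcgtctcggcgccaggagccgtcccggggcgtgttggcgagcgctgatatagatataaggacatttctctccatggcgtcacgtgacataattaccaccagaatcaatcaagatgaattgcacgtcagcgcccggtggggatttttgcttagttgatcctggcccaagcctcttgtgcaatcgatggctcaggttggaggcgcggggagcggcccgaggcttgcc
Hoxd13: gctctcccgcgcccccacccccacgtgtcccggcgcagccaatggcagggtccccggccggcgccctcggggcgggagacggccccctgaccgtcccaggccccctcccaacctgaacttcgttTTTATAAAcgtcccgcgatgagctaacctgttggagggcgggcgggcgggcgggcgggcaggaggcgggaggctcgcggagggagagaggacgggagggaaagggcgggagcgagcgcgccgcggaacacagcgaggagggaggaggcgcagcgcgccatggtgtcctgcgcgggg

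The Hoxa3 window lies between those of Hoxa6 and Hoxa7 on the chromosome. Of the 37 Hox genes, 21 matched the promoter table, with 23 windows. TTTAT was found on either strand in 8 of these 23 windows (34.8%), against 40.0% of all 32851 promoter windows of the same length. TGATNNAT, the site of Hox proteins paired with a Pbx partner, was found on either strand in 3 of the 23 (13.04%), against 8.85% of all windows. In the Hoxd13 window the matches overlap in TTTATAAA: the forward TTTAT ends with the AT that begins the reverse match ATAAA. The Hox windows held a median of 15 CG pairs (range 4 to 45), against a median of 7 over all windows, and 65.4% of all windows held fewer than 15. Among the windows shown, Hoxd13 held 37 CG pairs, Hoxa5 held 29, Hoxa3 held 20 and Hoxa2 held 9. The Hoxd11 windows held 4 CG pairs and 25 CG pairs. These matches describe the letters of the windows and no more.

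The arrays had similar distributions, with column medians between 170.2 and 192.03 intensity units. A level was called at or above the floor where it reached the midpoint of its array's probe sets with a gene name, between 217.9 and 240.1 units. The cell classes carried their markers. All 8 core pluripotency markers were at or above the floor on both ESC arrays, and none was on a MEF array (limma called 8 of 8 higher in ESCs). All 11 fibroblast markers were at or above the floor on each MEF array (limma called 11 of 11 lower in ESCs). Many deposited values were identical between MEF arrays: 37.4% of probe sets between the 4n 2i and 2n 2i MEFs, 37.9% between the 4n 2i and control MEFs, and 45.4% between the 2n 2i and control MEFs. No value was identical between an ESC and a MEF array. Between the ESC arrays 1.19% of probe sets were identical, and 3 of 37 Hox genes were: Hoxa5, Hoxb6 and Hoxb7. Among the Hox genes, 5 had the same value on all 3 MEF arrays and 10 had it on 2 of them, which is not independent measurement. Hoxa7, Hoxb2, Hoxb6, Hoxc4 and Hoxc10, called lower in ESCs in the first comparison, are among these 15.

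Few Hox genes reached the floor in ESCs, and many more did in MEFs. On the 2i ESC array 3 of 37 Hox genes were at or above the floor, and on the S ESC array 4 were. On the 4n 2i MEF array 23 were, on the 2n 2i MEF array 20 and on the control MEF array 18. In ESCs the genes at or above the floor were Hoxa4, Hoxc12 and Hoxc13 on both arrays, joined by Hoxb9 on the S ESC array. Hoxb and Hoxc each had 6 genes at or above the floor on all 3 MEF arrays. The MEF arrays differed in Hoxa, with 7 genes on the 4n 2i array, 6 on the 2n 2i array and 4 on the control array, and in Hoxd, with 4, 2 and 2. In a bulk sample, fewer cells of a type and less RNA per cell cannot be told apart.

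**Figure D1:**
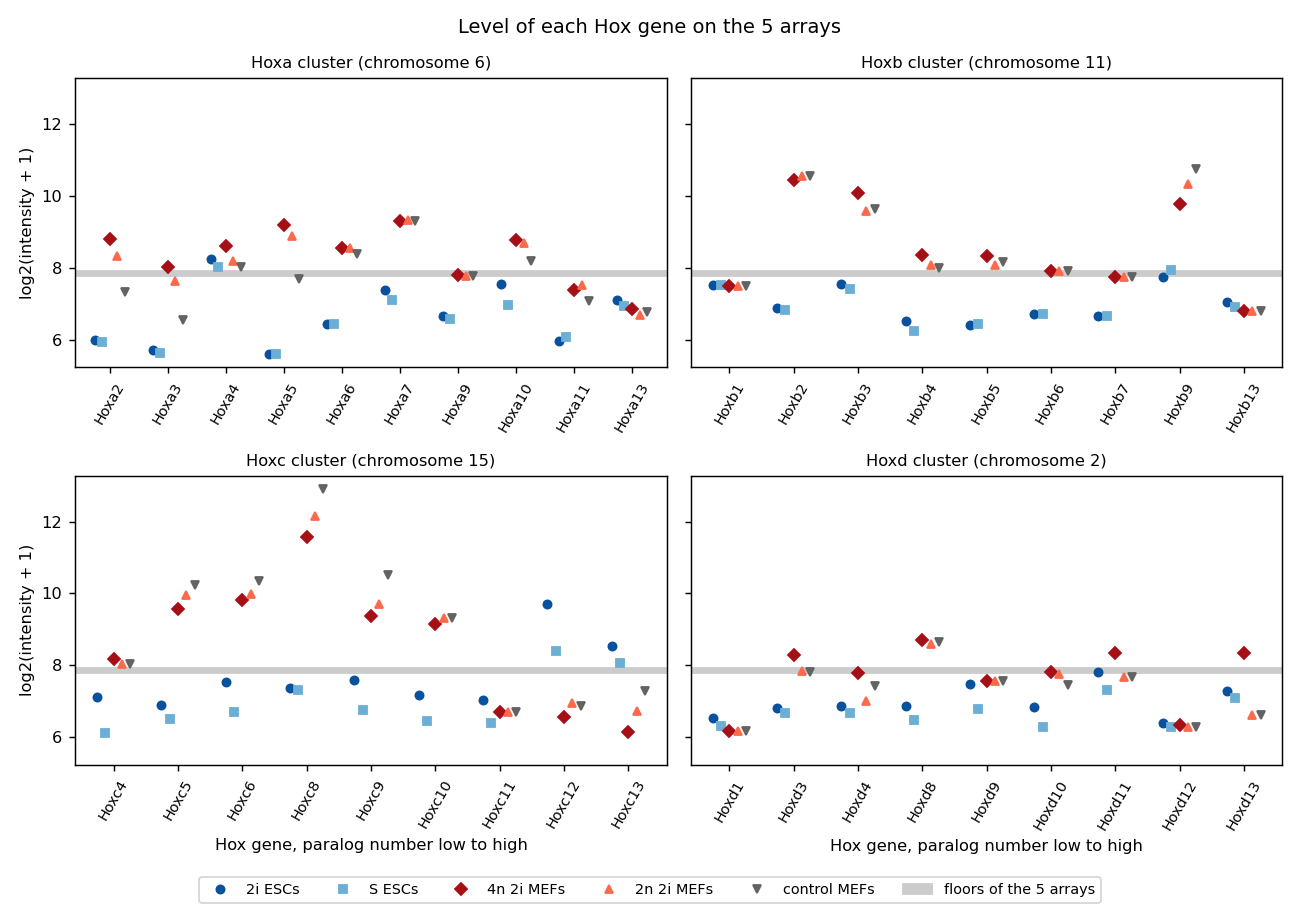
Log2(intensity + 1) of each of the 37 Hox genes on the 5 arrays, by cluster and by position in the cluster. Each symbol is 1 array and the grey band spans the floors of the 5 arrays; 3 and 4 genes reach their floor on the 2i and S ESC arrays, and 23, 20 and 18 on the 4n 2i, 2n 2i and control MEF arrays.

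The first comparison set the ESC arrays against the MEF arrays and asked which Hox genes distinguish pluripotent cells from fibroblasts. All 29 Hox genes with numbers 2 to 11 had a lower mean in ESCs, though Hoxa4 and Hoxc11 barely differed. The posterior pair Hoxc12 and Hoxc13 was higher. limma (adjusted p under 0.05 and at least 2-fold) called 20 of 37 Hox genes lower in ESCs, where 16.2% of all genes tested were called lower. It called 2 of 37 higher, where 16.6% of all genes tested were. The test covered the 25 Hox genes at or above the floor on at least 1 array. A gene that passes only through its high group had to differ, so the counts are read against all 37. Of all 19938 genes measured, limma called 1926 lower and 1970 higher. The 12 that stayed below the floor on all 5 arrays were Hoxa9, Hoxa11, Hoxa13, Hoxb1, Hoxb7, Hoxb13, Hoxc11, Hoxd1, Hoxd4, Hoxd9, Hoxd10 and Hoxd12. Regardless of the floor, the mean was lower in ESCs for 30 of 37 Hox genes, with a median log2 difference of -1.29, against 0.06 over all genes. Both ESC arrays lay below all 3 MEF arrays for 26 of 37 Hox genes, where 33.4% of all genes did, and above them for 6, where 43.9% of all genes did.

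Hoxc8, which patterns the lower thorax, had the largest difference. It measured 164 on the 2i ESC array and 158 on the S ESC array, against 3048 on the 4n 2i, 4521 on the 2n 2i and 7665 on the control MEF array. Both ESC arrays were below the floor and far below every MEF array. The mean log2 level was 7.34 ± 0.04 in ESCs (SD, n = 2) and 12.21 ± 0.67 in MEFs (SD, n = 3), 29.2-fold lower in ESCs (limma log2 difference -4.87, SE 0.41, adjusted p = 0.00131), a fold that rests on dim ESC values. Hoxc5 and Hoxc6, its neighbours in the cluster that act around the neck and upper thorax, came next within Hoxc, with 9.29-fold and 7.64-fold lower levels (limma adjusted p = 0.00104 and 0.00234). Hoxc5 measured 118 and 90.4 on the 2i and S ESC arrays, against 757, 994 and 1204 on the 4n 2i, 2n 2i and control MEF arrays. Hoxc6 measured 185 and 103 on the 2i and S ESC arrays, against 904, 1019 and 1301 on the 4n 2i, 2n 2i and control MEF arrays. In all 3 genes the control MEF array was the highest. Hoxc4, Hoxc9 and Hoxc10 were also called lower, so 6 of the 9 Hoxc genes fell.

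Hoxc12 and Hoxc13, at the tail end of the same cluster, went the other way. Hoxc12 measured 836 on the 2i ESC array and 336 on the S ESC array, against 93.6 on the 4n 2i, 123 on the 2n 2i and 116 on the control MEF array. Only the ESC arrays were above the floor, and the groups did not overlap. Its mean was 9.05 ± 0.93 in ESCs (SD, n = 2) and 6.80 ± 0.21 in MEFs (SD, n = 3), 4.78-fold higher in ESCs (limma log2 difference 2.26, SE 0.43, adjusted p = 0.0115). Hoxc13, a regulator of hair and nail keratins, measured 372 and 265 on the 2i and S ESC arrays, against 69.4, 105 and 156 on the 4n 2i, 2n 2i and control MEF arrays. It was 2.99-fold higher in ESCs (limma log2 difference 1.58, SE 0.39, adjusted p = 0.0251). Neither Hoxc12 nor Hoxc13 was above the floor on any MEF array.

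limma called 6 of the 9 Hoxb genes lower in ESCs, beside 16.2% of all genes tested. These 6 were the only Hoxb genes tested, and all but Hoxb9 passed the floor on MEF arrays alone. Hoxb2, which acts in the hindbrain and in facial motor neurons, measured 118 and 112 on the 2i and S ESC arrays, against 1382, 1502 and 1502 on the 4n 2i, 2n 2i and control MEF arrays. The MEF arrays were close together and the ESC arrays were far below them. It was 12.6-fold lower in ESCs (limma log2 difference -3.66, SE 0.09, adjusted p = 0.000170), with the same value on 2 of the MEF arrays. Hoxb9, a gene of the rib-bearing trunk, measured 213 and 244 on the 2i and S ESC arrays, against 875, 1292 and 1730 on the 4n 2i, 2n 2i and control MEF arrays. It was 5.47-fold lower in ESCs (limma adjusted p = 0.00388), although the S ESC array was above the floor. Hoxb3, which acts in the hindbrain and the pharyngeal arches, was 4.82-fold lower (limma adjusted p = 0.00128), at 188 and 171 on the 2i and S ESC arrays, against 1082, 761 and 791 on the 4n 2i, 2n 2i and control MEF arrays. Hoxb6 lay closest to the 2-fold threshold among the genes called. It was 2.29-fold lower in ESCs (limma adjusted p = 0.000658). However, its value was 240.9 on all 3 MEF arrays and 104.8 on both ESC arrays, so the spread within each class was 0. The spread behind its p-value was thus taken by limma from other genes.

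limma called 6 Hoxa genes lower in ESCs, and several of these differed among the MEF arrays. Hoxa5, which patterns the neck and the lung, measured 47.4 on both ESC arrays, against 579 on the 4n 2i, 469 on the 2n 2i and 204 on the control MEF array. The ESC arrays were at the low end of the scale and the MEF arrays were spread out. Its mean was 5.60 ± 0.00 in ESCs (SD, n = 2) and 8.58 ± 0.79 in MEFs (SD, n = 3), 7.90-fold lower in ESCs (limma log2 difference -2.98, SE 0.49, adjusted p = 0.00770). Hoxa2, which specifies the second pharyngeal arch and parts of the hindbrain, was 4.61-fold lower (limma adjusted p = 0.0158), and Hoxa6, a gene of the thorax, was 4.19-fold lower (limma adjusted p = 0.000383). Hoxa6 measured 85.5 and 85.8 on the 2i and S ESC arrays, against 378, 377 and 333 on the 4n 2i, 2n 2i and control MEF arrays, so its MEF arrays were close together. Hoxa3, Hoxa7 and Hoxa10 were also called. Hoxa4 was not: it measured 302 and 257 on the 2i and S ESC arrays, against 386, 292 and 257 on the 4n 2i, 2n 2i and control MEF arrays (limma log2 difference -0.14, adjusted p = 0.593), and the groups overlapped.

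Hoxd was the cluster with the fewest calls, 2 of 9. Hoxd8, expressed in the trunk, measured 117 and 88.0 on the 2i and S ESC arrays, against 419.5, 384 and 399 on the 4n 2i, 2n 2i and control MEF arrays, and was 3.92-fold lower in ESCs (limma log2 difference -1.97, SE 0.15, adjusted p = 0.00102). Hoxd3, which shapes the first neck vertebrae, was 2.35-fold lower (limma adjusted p = 0.00586). Hoxd11 and Hoxd13, genes of the forearm, the digits and the urogenital tract, were tested and not called (limma adjusted p = 0.366 and 0.983). Both were above the floor on the 4n 2i MEF array alone, and their values are given with that array. The median ESC minus MEF log2 difference over all measured members was -1.52 in Hoxa (10 genes), -1.75 in Hoxb (9), -2.45 in Hoxc (9) and -0.44 in Hoxd (9).

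By position, limma called 5 of the 7 anterior genes (numbers 1 to 3), 11 of the 14 central genes (numbers 4 to 8) and 4 of the 16 posterior genes (numbers 9 to 13) lower in ESCs, beside 16.2% of all genes tested. The floor left 5 anterior, 12 central and only 8 posterior genes to test. Regardless of the floor, both ESC arrays lay below all 3 MEF arrays for 5 of 7, 13 of 14 and 8 of 16, where 33.4% of all genes did. The 2 genes called higher were posterior. Median log2 differences were -1.73, -1.87 and -0.39 in that order, against 0.06 over all genes. Across the 37 genes the Spearman rank correlation of the ESC minus MEF difference with the number was 0.39, and it was 0.68 in Hoxc (n = 9), 0.55 in Hoxa (n = 10), and 0.27 in both Hoxb and Hoxd (n = 9 each). These values come from the same 5 arrays and neighbouring genes, and describe them only.

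The count of Hox genes called lower was 13 without the S ESC array, 14 without the 2i ESC array and 16 without the 2n 2i MEF array, and the count called higher was 1 without any of these. Hoxa2, Hoxa3, Hoxa10 and Hoxc13 lost their call without each of these 3 arrays in turn, and Hoxa5 without either ESC array (limma adjusted p = 0.0847 without the 2i array and 0.0866 without the S array).

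**Figure D2:**
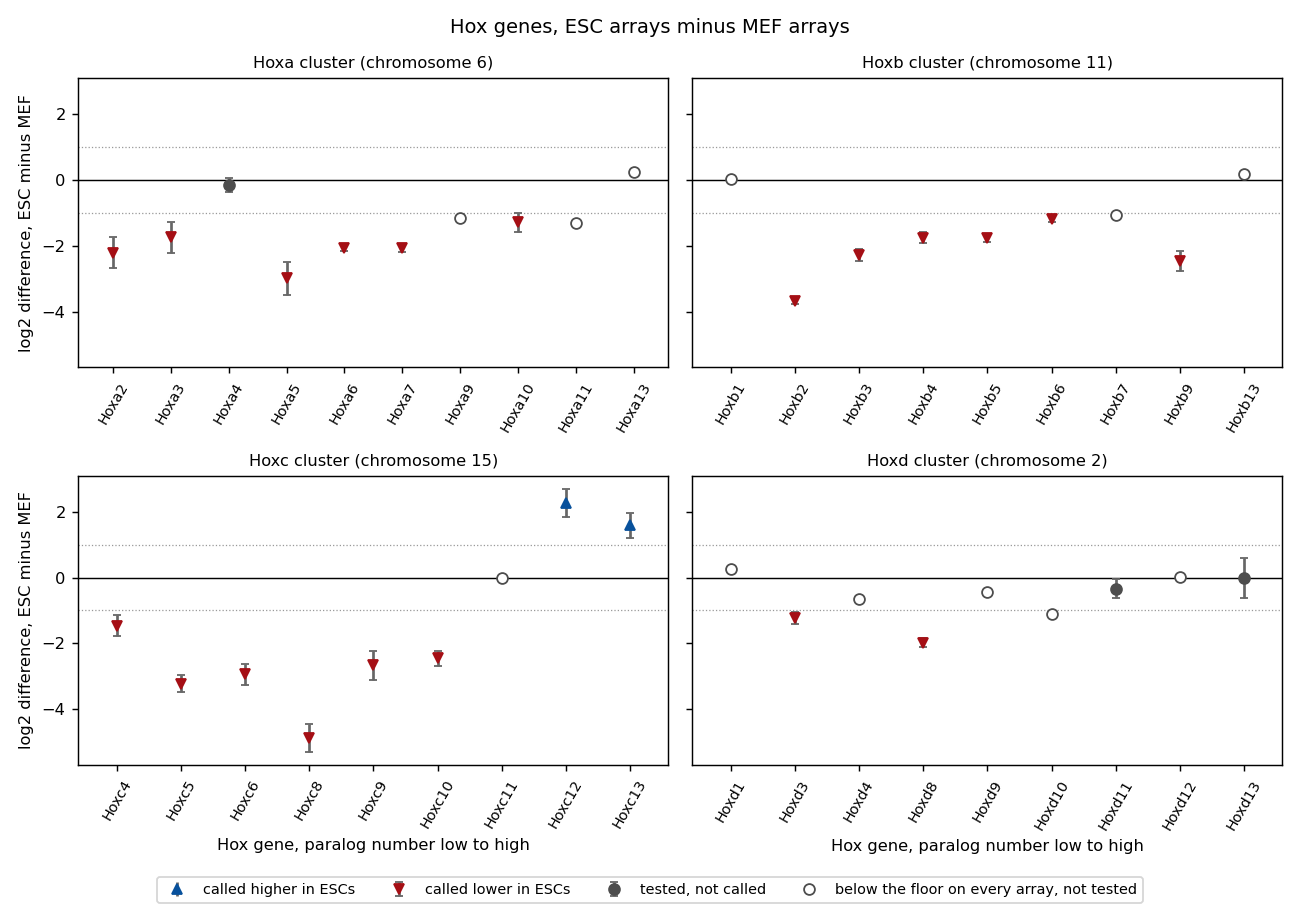
Log2 difference of ESC minus MEF arrays for the Hox genes by cluster and number (2 ESC and 3 MEF arrays), with triangles for genes limma called, filled circles for genes tested and not called, open circles for genes below the floor on every array, bars of 1 SE from limma and dotted lines at 2-fold. Genes with numbers 2 to 11 lie below 0, some only slightly, down to -4.87 for Hoxc8, and Hoxc12 and Hoxc13 lie above 0.

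The MEF comparisons asked how fibroblasts labelled 4n 2i or 2n 2i differ in positional genes from control MEFs. On the 4n 2i MEF array Hoxa2, Hoxa3, Hoxa5 and Hoxd13 were higher, and the trunk genes Hoxc8 and Hoxc9 were lower, than on the control MEF array. Of 37 Hox genes, 23 were past the floor in this pair. Hoxa2, Hoxa3, Hoxa5 and Hoxd13 stood at least 2-fold above control, where 5.22% of all genes past the floor did. Hoxc8 and Hoxc9 were at least 2-fold below it, where 3.41% of all genes past the floor were. Hoxd13, the last gene of its cluster, measured 325 on the 4n 2i MEF array and 97.2 on both the 2n 2i and the control MEF array. It was 3.32-fold higher on the 4n 2i array (log2 difference 1.73), which was the only MEF array above the floor. On the ESC arrays it measured 154 (2i) and 135 (S), below their floors.

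Hoxa5 was 2.83-fold higher on the 4n 2i than on the control MEF array and 2.29-fold higher on the 2n 2i than on the control MEF array. Hoxa2 measured 449.7 on the 4n 2i, 319 on the 2n 2i and 161 on the control MEF array. It was 2.78-fold higher on the 4n 2i array and, just under the threshold, 1.98-fold higher on the 2n 2i array than on the control array. Hoxa3, which is needed for the thymus and parathyroid glands, measured 259.8 on the 4n 2i, 197 on the 2n 2i and 93.2 on the control MEF array, a 2.77-fold difference for the 4n 2i array. Only the 4n 2i value was above the floor, so the 2.10-fold difference between the 2n 2i and control arrays lies below both floors. In all 3 genes the 4n 2i array was highest, the control array lowest and the 2n 2i array between them. Both 2i MEF arrays were compared with the same control MEF array, so these differences share its error.

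Hoxc8 was 2.51-fold lower on the 4n 2i than on the control MEF array (log2 difference -1.33) and 1.70-fold lower on the 2n 2i than on the control array (-0.76). Hoxc9, which acts in thoracic motor neurons, measured 655 on the 4n 2i, 827.5 on the 2n 2i and 1447 on the control MEF array. It was 2.21-fold lower on the 4n 2i array (log2 difference -1.14) and 1.75-fold lower on the 2n 2i array (-0.81) than on the control array. Hoxc5 and Hoxc6 had the same order, with log2 differences from control of -0.67 and -0.53 on the 4n 2i array and -0.28 and -0.35 on the 2n 2i array. Hoxb9 was 1.98-fold lower on the 4n 2i array, just under the threshold, and its log2 difference was -0.42 on the 2n 2i array. Hoxc13 was lower too (log2 -1.16 on the 4n 2i array), but it was below the floor on all MEF arrays.

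Between the 2n 2i and the control MEF arrays, 20 of 37 Hox genes were past the floor. Hoxa5 alone was at least 2-fold higher on the 2n 2i array, where 1.47% of all genes past the floor were. None of the 20 was at least 2-fold lower, where 0.432% of all genes past the floor were. These are 1-array differences with no test. By any amount, 20 Hox genes were higher, 10 lower and 7 identical on the 4n 2i than on the control MEF array, while 27.4% of all genes were higher and 36.6% lower. On the 2n 2i array 12 were higher, 12 lower and 13 identical relative to the control array, while 28.2% of all genes were higher and 28.8% lower.

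The clusters differed in direction. In Hoxa, 9 of 10 genes were higher on the 4n 2i array and 8 of 10 on the 2n 2i array, with median log2 differences from control of 0.44 and 0.30. In Hoxc, 7 of 9 genes were lower on the 4n 2i array and 5 of 9 on the 2n 2i array, with medians of -0.53 and -0.28. In Hoxd, 7 of 9 were higher on the 4n 2i array (median 0.35) and 2 of 9 on the 2n 2i array (median 0.00). Hoxb had medians of 0.00 on both arrays. Of the Hoxa genes 7 were above control on both 2i MEF arrays, as were 14.6% of all genes, and 5 Hoxc genes were below it on both, as were 18.3% of all genes. After quantile normalization, which separates most identical values, 29.1% of all genes were higher and 70.8% lower on the 4n 2i than on the control array, with a median of -0.02. On the 2n 2i array 51.4% of all genes were then higher and 48.4% lower, with a median of 0.00. Beside these shares, Hoxa was higher in 9 of 10 genes on the 4n 2i and 7 of 10 on the 2n 2i array. Hoxc was lower in 8 of 9 on the 4n 2i and 7 of 9 on the 2n 2i array, and Hoxb in 6 of 9 and 7 of 9. On the 4n 2i array Hoxb (66.7%) thus lay near the 70.8% of all genes. The Hoxc count there (88.9%, median -0.48) was not far above that share. Over the 37 Hox genes this scaling gave 20 higher and 17 lower on the 4n 2i array, and 15 higher and 22 lower on the 2n 2i array.

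Within Hoxa the difference ran with the gene number. The rank correlation of the difference from control with the gene number was -0.65 on the 4n 2i array and -0.60 on the 2n 2i array (n = 10 genes each), where Hoxa9, Hoxa11 and Hoxa13 lie below the floor on every array. Over the 37 genes it was -0.19 and -0.15, in Hoxb -0.27 and -0.22 and in Hoxc -0.17 and 0.12 on the 4n 2i and 2n 2i arrays. Hoxa4 and Hoxa10 were higher by log2 0.58 and 0.57 on the 4n 2i array, and Hoxa7 was 633 on both the 4n 2i and the control array. In Hoxd it was 0.42 on the 4n 2i array and 0.15 on the 2n 2i array (n = 9 genes), with Hoxd3 higher by log2 0.47 and Hoxd11 by 0.68. These points share the control array and their neighbours, and carry no test.

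**Figure D3:**
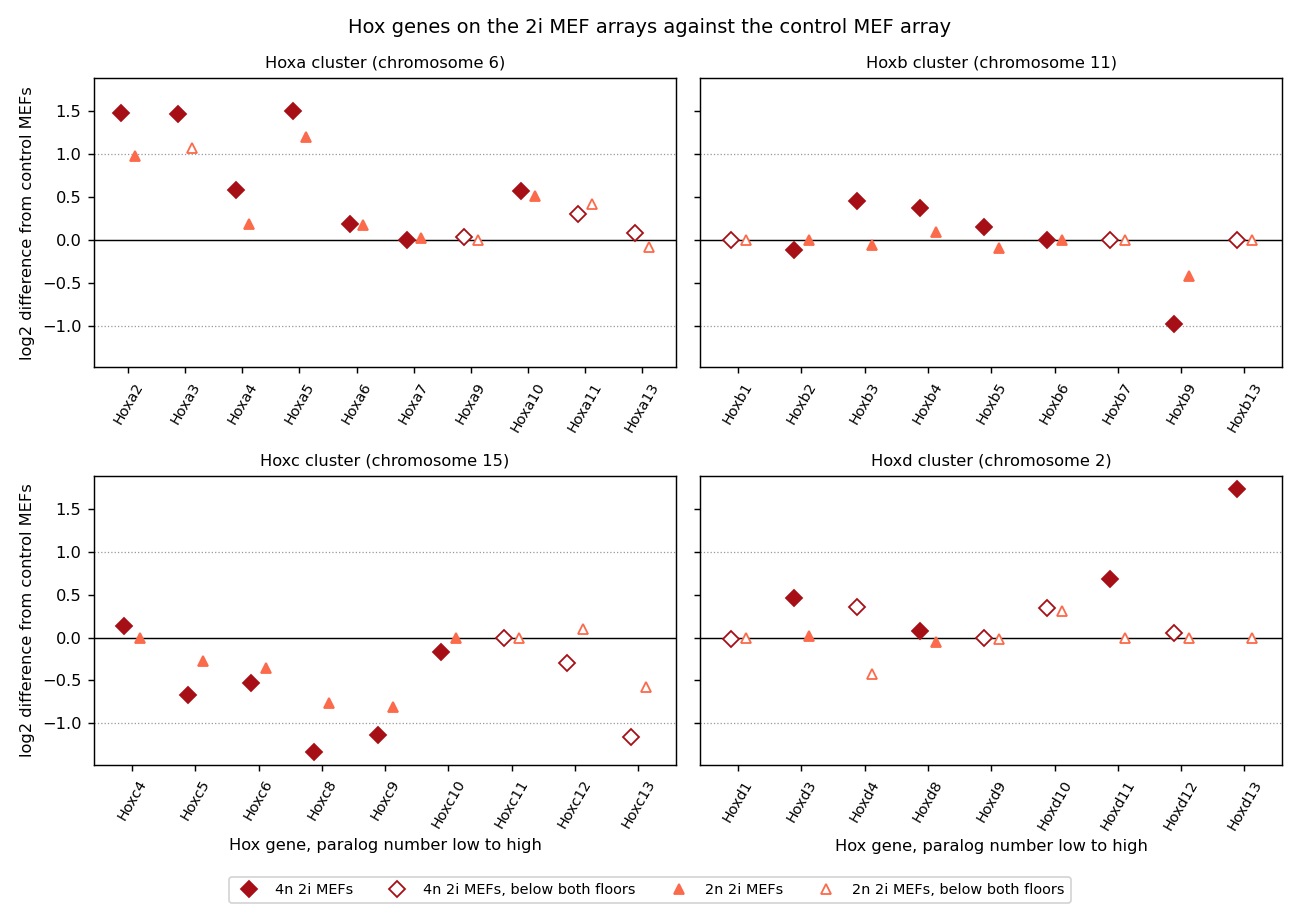
Log2 difference from the control MEF array for each Hox gene, on the 4n 2i (diamonds) and the 2n 2i (triangles) MEF arrays, by cluster and number, 1 array each, with open symbols below both floors and dotted lines at 2-fold. Hoxa genes lie mostly above 0 (medians 0.44 and 0.30), Hoxc genes mostly below 0 (medians -0.53 and -0.28), and Hoxd13 stands at 1.73 on the 4n 2i array and 0.00 on the 2n 2i array.

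Between the 4n 2i and the 2n 2i MEF arrays, 23 of the 37 Hox genes were past the floor. Hoxd13 alone was at least 2-fold higher on the 4n 2i array, where 3.33% of all genes past the floor were. None was at least 2-fold lower, where 2.36% of all genes past the floor were. Hoxd11 measured 324 on the 4n 2i array and 202 on the 2n 2i array, a log2 difference of 0.68, with 202 on the control array as well. Hoxd4, a gene of the neck and hindbrain, was higher by log2 0.79 on the 4n 2i array and lay below the floor on all MEF arrays. Hoxc8 was lower by log2 -0.57 on the 4n 2i array. Hoxd was higher on the 4n 2i array in 8 of 9 genes and Hoxa in 8 of 10, while Hoxc was lower in 7 of 9, with medians of 0.13, 0.11 and -0.34. Of all genes 28.6% were higher and 36.1% lower by any amount. After quantile normalization Hoxd was higher in 6 of 9 genes, Hoxa in 8 of 10, and Hoxc lower in 8 of 9. The 37 Hox genes then split into 18 higher and 19 lower, and all genes into 32.7% higher and 67.3% lower. The Hoxc count (88.9% lower, median -0.27) was not far above that share. The standard deviation of the log2 difference between these arrays over all genes past the floor was 0.54.

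Some markers of other cell types also differed between these MEF arrays. Mesothelium markers, which define the lining of body cavities, summed to 8551 on the 4n 2i, 5142 on the 2n 2i and 1642 on the control MEF array. On both 2i MEF arrays 5 of 6 were at least 2-fold above control. Of all genes past the floor, 5.22% were on the 4n 2i array and 1.47% on the 2n 2i array. Upk3b alone measured 2387 on the 4n 2i, 1195 on the 2n 2i and 160.0 on the control array. Macrophage and blood markers summed to 16923 on the 4n 2i, 1633 on the 2n 2i and 2089 on the control MEF array. At least 2-fold above control were 6 of 10 on the 4n 2i array and 0 on the 2n 2i array, beside those same shares. Ptprc, Cd14, Kit and Gata1 of that list were below the floor on the 4n 2i array. Among the other markers, Lum (log2 2.92) and Col3a1 (1.40) of the fibroblast list, Sox10 (1.83) of glia and Krt14 (2.03) of epithelium were higher on the 4n 2i than on the control array, and Tubb3 of neurons was lower (-1.19). Nes (1.70) of the neural tube and Emcn (2.60) of endothelium were higher on the 2n 2i than on the control array. Des, a muscle filament, was higher by log2 3.78 on the 4n 2i and 2.92 on the 2n 2i array. The lists of these genes as wholes moved less. Relative to control, the fibroblast median was log2 0.46 on the 4n 2i array, and the epithelium median was 0.00. Neural tube and glia had medians of 0.04 on the 4n 2i and 0.00 on the 2n 2i array. Muscle had 0.01 and 0.00 in that order, and endothelium had -0.03 on the 2n 2i array. The part of these cells in the Hox differences was not tested.

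The remaining pair, 2i ESCs against S ESCs, asked how the Hox genes differ between the ESC arrays with these labels. The label S is not spelled out, and the arrays also carry different title numbers (15 and 36). What sets these arrays apart therefore cannot be told from the labels. Hoxc12 was the one Hox gene of 37 at least 2-fold higher and past the floor, where 2.78% of all genes past the floor were. None was at least 2-fold lower, where 2.54% of all genes past the floor were. Hoxc12 measured 836 on the 2i ESC array and 336 on the S ESC array, a 2.49-fold difference (log2 1.31). Only 4 Hox genes were past the floor in this pair. The others were Hoxc13 (372 on 2i and 265 on S, log2 0.49), Hoxa4 (302 on 2i and 257 on S, log2 0.23) and Hoxb9 (213 on 2i and 244 on S, log2 -0.20). Hoxc4 was 139 on the 2i and 69.0 on the S array, which is 2.00-fold after rounding and just under the threshold, and it lay below both floors.

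Small differences in this pair pointed one way in 2 of the clusters. All 9 Hoxc and all 9 Hoxd genes were higher on the 2i than on the S ESC array, by a median log2 of 0.72 and 0.21, where 54.9% of all genes were higher, 44.2% were lower and their median was 0.03. Over the 37 genes, 30 were higher, 4 lower and 3 identical, and after quantile normalization 26 were higher and 11 lower, where 50.6% of all genes were higher and 49.4% lower. Besides Hoxc12 and Hoxc4, the log2 differences were 0.84 for Hoxc6, 0.83 for Hoxc9 and 0.72 for Hoxc10, all with both values below the floor. Hoxa had a median of 0.10 and Hoxb of 0.01. After quantile normalization Hoxc was higher in 8 of 9 genes (median 0.63) and Hoxd in 9 of 9 (median 0.13), while Hoxb turned to 3 higher and 6 lower (median -0.06). The 11 fibroblast markers were all lower on the 2i than on the S ESC array and summed to 2537 on 2i and 3736 on S, against 82064, 68359 and 63750 on the 4n 2i, 2n 2i and control MEF arrays. Their part in the Hox differences was not tested.

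**Figure D4:**
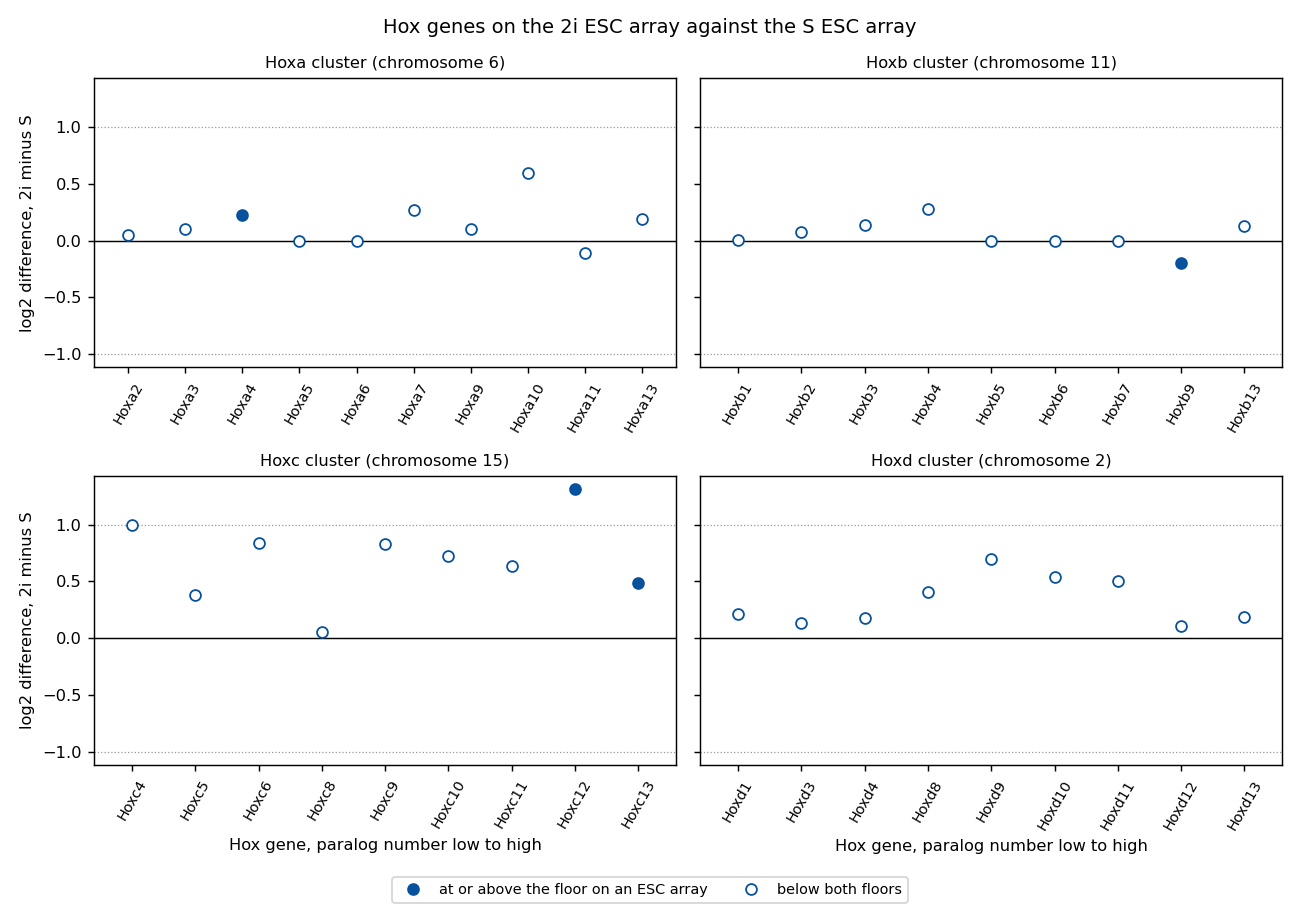
Log2 difference of the 2i ESC minus the S ESC array for each Hox gene by cluster and number, 1 array each, with open circles below both floors and dotted lines at 2-fold. All Hoxc and Hoxd genes lie above 0, with Hoxc12 highest at 1.31, and most genes are below the floor on both arrays.

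The cofactors of Hox proteins, the homeodomain partners Pbx, Meis and Pknox, were measured for 8 of 9 list members. limma called 2 lower in ESCs, Meis1 (log2 difference -3.62) and Meis3 (-2.28), and 1 higher, Pbx4 (1.15), beside 16.2% and 16.6% of all genes tested, so these counts of 8 are near the shares of all genes. Meis1 measured 103 and 96.7 on the 2i and S ESC arrays, against 1724, 1233 and 892 on the 4n 2i, 2n 2i and control MEF arrays, so all MEF arrays were far above both ESC arrays. Meis2 was 1298 on the 2i and 206 on the S ESC array, a log2 difference of 2.65, and Pknox2 was 645 on the 2i and 159 on the S ESC array (2.01). Pknox2 was also 609 on the 4n 2i, 365 on the 2n 2i and 174 on the control MEF array, higher by log2 1.80 and 1.06 than on the control array. The list median was 0.57 on the 4n 2i and 0.31 on the 2n 2i MEF array relative to control, against 0.00 over all genes.

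Genes of the signals known to act on Hox genes were measured for 17 of 18 list members. They include Aldh1a enzymes, which make retinoic acid, and Cyp26 enzymes, which break it down. limma called 4 lower in ESCs, Aldh1a1 (log2 -1.75), the retinoid-binding Crabp1 (-1.71) and Crabp2 (-1.68), and the ligand Gdf11 (-1.21), and 0 higher, beside 16.2% lower and 16.6% higher over all genes tested. Aldh1a2, the main retinoic acid enzyme of the trunk, measured 673.5 on the 4n 2i, 339.5 on the 2n 2i and 86.8 on the control MEF array. It was higher by log2 2.94 on the 4n 2i and 1.96 on the 2n 2i than on the control array. In this list only Aldh1a2 and Aldh1a1 (1.56) passed 2-fold on the 4n 2i array, and only Aldh1a2 did on the 2n 2i array. Of all genes past the floor, 5.22% and 1.47% were at least 2-fold higher on these arrays in that order. Rarg, a retinoic acid receptor, was 374 on the 2i and 1809 on the S ESC array (log2 -2.27), and Crabp2 differed by -1.16 in that pair.

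Of 26 genes that flank the clusters 20 were measured, and none was at least 2-fold different past the floor between the 4n 2i or 2n 2i and the control MEF array. Of all genes past the floor, 5.22% were higher and 3.41% lower by that much on the 4n 2i array, and 1.47% and 0.432% on the 2n 2i array. In ESCs against MEFs limma called 1 lower, Copz2 (log2 -2.48), and 5 higher, among them Calcoco2 (3.60), Ttll6 (1.78), Snx10 (1.23) and Cbx5 (1.06). Of all genes tested 16.2% were called lower and 16.6% higher. Calcoco2, next to the Hoxb cluster, was 1376 on the 2i and 309 on the S ESC array (log2 2.15). Of the noncoding RNAs of the clusters, 10 of 18 were measured, only Mir615 was at or above the floor, and limma called none.

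Regulators that keep Hox genes on (Trithorax) or off (Polycomb) were measured for 21 of 23. limma called 12 higher in ESCs, beside 16.6% of all genes tested, and 1 lower, beside 16.2%. Their median log2 difference was 1.12, against 0.06 over all genes. Cbx7 (3.68), Jarid2 (3.34) and Phc1 (2.65), all partners of Polycomb complexes, rose in ESCs, and Bmi1, another Polycomb subunit, fell by 2.00 on the log2 scale. Jarid2 measured 6424 on the 2i and 7865 on the S ESC array, against 734, 775 and 610.2 on the 4n 2i, 2n 2i and control MEF arrays. Between MEF arrays only Pcgf2 was at least 2-fold different, higher by log2 1.22 on the 4n 2i than on the control array. Of all genes past the floor 5.22% were higher by at least 2-fold in that pair.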

How the data were processed

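The values deposited by the authors are intensity on a linear scale, for 28853 probe sets on each of 5 mouse arrays. Per the labels' protocols, column-extracted total RNA was fragmented and biotin-labelled. The authors' background correction, summary and normalization are not given in the sources used here. Precision is limited by the number of arrays.

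The platform annotation gives 1 gene to 21789 probe sets, several to 1621 and none to 5443. Names were brought to the RefSeq table of GRCm38.p6 by Entrez ID. The brightest probe set stood for a gene with several. Values were taken as log2(value + 1). A gene entered a comparison when at least 1 of its arrays was at or above the floor, the median over that array's probe sets with a gene name. Pairs of arrays were compared by log2 difference and 2-fold with no test. The ESC and MEF arrays were compared with limma 3.58.1 (lmFit and eBayes, R 4.3.3) over 11855 genes, with Benjamini-Hochberg adjustment and 3 residual degrees of freedom; a call needs adjusted p under 0.05 and at least 2-fold. This step was tested on simulated data. Tables were handled in pandas 2.3.3 and numpy 2.4.6 under Python 3.11.15, rank correlations came from scipy 1.17.1 and plots from matplotlib 3.10.9.

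Genes named with values are those at least 2-fold different and past the floor in a pair, the 3 largest differences called in each direction of each cluster in ESCs against MEFs, those closest to a threshold, and up to 4 members of each other list per comparison. The members and the lists were chosen with earlier results of these data known. Genes named outside this rule (the rest of each cluster, Hoxa4, Hoxd4, the Trithorax genes and others below a threshold) were chosen after their values were seen. Alternatives were another floor or none, quantile normalization, the mean of probe sets, a pseudocount of 16, 3-fold, an intensity trend with a robust prior, leaving out genes with identical MEF values, and leaving out each array.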

Additional observations from a re-analysis of the deposited data

How the results depend on the processing

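No paired analysis was possible because each group has 1 array; title number 15 is shared by 1 pair alone, a 2i ESC and a 2n 2i MEF sample. With the floor at the 75th percentile, limma called 7 Hox genes lower and 0 higher in ESCs (1094 of all genes higher), 7 being the number tested. Then 0 Hox genes were at or above it on either ESC array, 4 on the 4n 2i, 5 on the 2n 2i and 6 on the control MEF array, and 0 were at least 2-fold higher in any pair. At 3-fold, 1 Hox gene was called higher, with 1135 of all genes lower and 971 higher; 1 was higher on the 4n 2i than on the control array, 0 were lower, and 0 were higher on the 2n 2i than on the control array or on the 2i than on the S ESC array. Without a floor, 2 were at least 2-fold higher on the 2n 2i than on the control array. Without genes identical on at least 2 MEF arrays, 15 Hox genes were called lower and 2 higher, and 1031 of all genes higher. Leaving out each array in turn gave 13 to 20 Hox genes called lower and 1 to 2 higher, and 1400 to 2008 of all genes lower and 1580 to 1873 higher. Of the 25 single genes tested, 8 lost their call without the S ESC array, 7 without the 2i ESC array, 5 without the 2n 2i MEF array and 5 at 3-fold; none reversed in the alternatives run. The cause of these losses was not tested. With 1 array a group and many identical MEF values, small differences between MEF arrays are limited by an unknown array error, and genes below the floor by dim signal.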

Other observations

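Genes that mark other positions in the body were followed beside the Hox genes. Of the 21 limb, girdle and trunk regulators, limma called 11 lower and 0 higher in ESCs, beside 16.2% lower and 16.6% higher over all genes tested, with the largest falls in Prrx1 (log2 -5.44), Tbx15 (-4.10), Emx2 (-3.47) and Prrx2 (-3.39), factors of limb and girdle mesenchyme. Between MEF arrays, 4 were at least 2-fold higher and 1 lower on the 4n 2i than on the control array. Of all genes past the floor 5.22% were higher and 3.41% lower by that much. Islr, a stromal surface protein on that list rather than a positional regulator, measured 2734 on the 4n 2i, 435 on the 2n 2i and 130.4 on the control array. Meox1 measured 1310 on the 4n 2i, 189.7 on the 2n 2i and 116 on the control array, so the 4n 2i array stood alone. Tbx4, a hindlimb factor, measured 559 on the 4n 2i, 332 on the 2n 2i and 144 on the control array. Tbx18 was lower on the 4n 2i array, at 248, against 582 on the control array.

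Of the head and branchial arch regulators, 17 of 21 were measured. limma called 3 lower and 1 higher in ESCs, the higher one being Otx2 (log2 5.09). Of all genes tested 16.2% were called lower, a share near 3 of 17, and 16.6% were called higher. Dlx5 was at least 2-fold higher on both 2i MEF arrays, at 423 on the 4n 2i, 327 on the 2n 2i and 148 on the control array. Dlx2 measured 413 on the 4n 2i, 869 on the 2n 2i and 1181 on the control array, the opposite order. All 6 ParaHox genes, relatives of the Hox genes outside the clusters, were measured, limma called none, and only Cdx1 was at or above the floor.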
